A study of Mus musculus with 6 samples.

Results

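Sperm-egg fusion genes encode sperm proteins that act when a sperm that has crossed the egg coat merges with the egg membrane, and the group is taken here with the paralogues of Izumo1. The group described here holds 10 mouse genes chosen by name, Izumo1, Izumo2, Izumo3, Izumo4, Spaca6, Tmem95, Llcfc1, Dcst1, Dcst2 and Tmem81, of 53700 gene identifiers in the count tables, and all 10 were found under these names. RNA from whole testes of 6 mice at postnatal day 45 was sequenced, 3 labelled Msl3 wild type (WT) and 3 labelled conditional knockout (cKO) of a floxed Msl3 allele. In a floxed allele, recognition sites flank part of a gene so that a recombinase can delete it. Msl3 is a chromodomain gene of the male-specific lethal histone acetyltransferase complex, and the series asks whether its loss affects spermatogenesis. The strain label of all 6 mice, wild type included, reads Msl3em1Forni/C57BL/6J. The recombinase, the cells in which it acts and the deleted exons are not given in the sources used here.

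Fusion follows binding. After the acrosome reaction the membrane protein IZUMO1 becomes exposed on the sperm head and binds its egg receptor JUNO, the product of Izumo1r, while several other sperm proteins act on the same step and their loss leaves sperm that bind but do not fuse. Transcripts of these genes are made mainly in spermatids, the haploid germ cells, which make up much of the adult testis. In whole tissue, fewer spermatids and less RNA per spermatid cannot be told apart, and this holds for every difference given here.

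The 6 libraries held 56991431 to 73766444 reads assigned to genes. Msl3 itself, the check on the labels, had 942, 1226 and 990 reads in the WT libraries and 1170, 829 and 923 in those labelled cKO, with a log2 fold change of -0.12 (edgeR adjusted p 0.551). The gene count covers all exons and does not show the deletion, so the second group is called "labelled cKO" and every difference is that of the labels. Spermatid and spermatocyte markers were abundant in every library. Of 5 epididymis and 6 oocyte markers, 4 of each list had too few reads to be tested, with 0 to 1 reads of the egg coat gene Zp2 and 0 to 1 of the epididymal gene Lcn5 in a library. The lists summed to 3.77 to 5.59 CPM and 11.1 to 13.2 CPM in a library, nearly all of it from Rnase10 and Gdf9, which are named after their values were seen.

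None of the 10 fusion genes passed an adjusted p of 0.05 in edgeR's quasi-likelihood test of cKO-labelled against WT libraries, where 4 of 21902 tested genes (0.0183%) did. All 10 had enough reads to be tested. Izumo1, Izumo2, Izumo3, Llcfc1 and Tmem81 stood at 83.3% to 85.8% of their WT level in the cKO-labelled libraries, each with an unadjusted p under 0.05, and Izumo4 and Spaca6 had smaller negative values. Tmem95, Dcst1 and Dcst2 had values above 0. The median log2 fold change over the 10 genes was -0.19, against 0.003 over all tested genes, and 7 of 10 were negative, against 49.3% of all tested genes. At an unadjusted p under 0.05, 5 of 10 were lower and 0 higher, beside 6.54% and 7.33% of tested genes. Several of these genes varied alike from library to library, so the 10 values are not independent of each other. DESeq2, run on the same genes, gave an adjusted p for 11711 of them (53.5%), so it adjusted over fewer genes than edgeR. It called Izumo1 alone of the 10 (adjusted p 0.0494), where it called 0.948% of those 11711 genes lower.

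**Figure D1:**
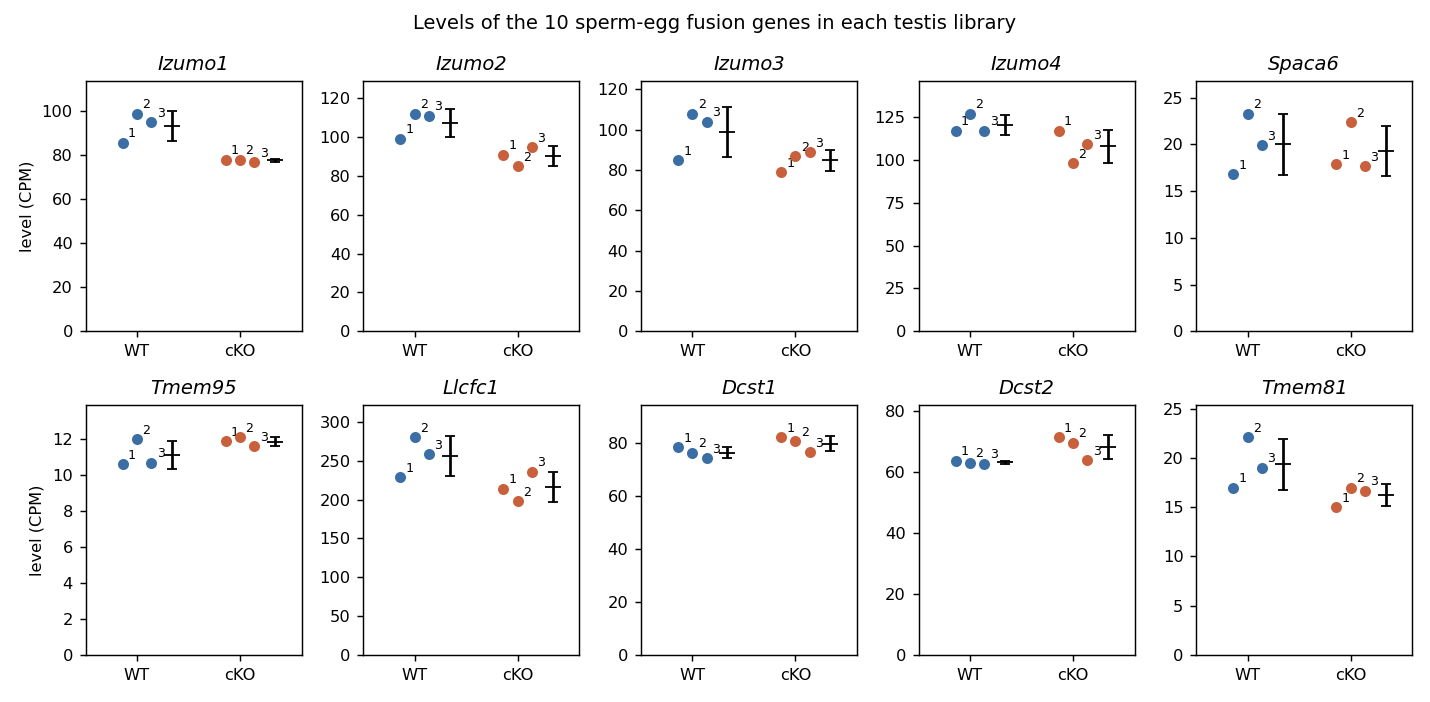
Level of each fusion gene (CPM, linear axes from 0) in the 3 WT (blue) and 3 cKO-labelled (orange) libraries. Points are libraries with their replicate number, and bars give the mean and SD of each group. The Izumo1 points labelled cKO lie between 76.8 and 77.9 CPM, under all 3 WT points.

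Levels are given in CPM, which sets the reads of a gene against the total assigned reads of its library, with library sizes scaled by trimmed means. Between 626 and 18182 reads lay behind each value of a fusion gene, so counting alone gives an error of 0.742% to 4.0%. By level the genes ranked from the 56.2 to the 95.9 percentile of all tested genes.

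IZUMO1 and its 2 partners come first. Izumo1 (ENSMUSG00000064158, chr7:45621811-45628823, GRCm38, plus strand) encodes the sperm ligand of JUNO, and male mice without it are sterile because their sperm do not fuse. It stood at 85.6, 98.8 and 94.9 CPM in WT libraries 1, 2 and 3 and at 77.9, 77.9 and 76.8 CPM in cKO-labelled libraries 1, 2 and 3. The groups did not overlap, and the cKO-labelled values lay close together while WT replicate 1 sat below the other 2 WT libraries. The means were 93.1 ± 6.82 CPM (SD, n = 3) and 77.5 ± 0.611 CPM (SD, n = 3), or a log2 difference of -0.26 (SE 0.070, edgeR p 0.00282, adjusted p 0.276). That is 83.3% of WT, with a 95% interval from 74.9% to 92.6% before any adjustment for the number of genes. Without a filter on low counts Izumo1 passed the edgeR threshold (adjusted p 0.0406), in a fit that called 1.10% of genes lower. The coefficient of variation among the cKO-labelled libraries, 0.788%, was below the 1.44% that counting alone gives, so the narrow spread of 3 libraries there is not a measure of how mice differ. Of the exon bases of Izumo1, 21.9% also belong to Rasip1 on the same strand, and reads there cannot be assigned to either gene. Rasip1 had 3.47 to 4.29 CPM.

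The 250 bases before the Izumo1 start site (chr7:45621561-45621810, GRCm38.p6, plus strand, RefSeq) are shown because this gene had the most negative fold change of the 10 and because its window was the only one with a cyclic AMP response element. That element, the letters TGACGTCA read on both strands, is bound by CREM, a main activator of spermatid genes, and stands in capitals:
Izumo1 promoter: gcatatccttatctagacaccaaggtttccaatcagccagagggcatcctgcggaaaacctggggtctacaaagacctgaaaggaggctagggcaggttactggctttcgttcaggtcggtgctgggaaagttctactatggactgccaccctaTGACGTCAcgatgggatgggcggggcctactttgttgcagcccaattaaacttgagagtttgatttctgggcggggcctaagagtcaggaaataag
The first base of the match lay 96 bases before the start site. Of 32851 RefSeq windows of this length, 1.55% held the motif, as did 1 of the 9 fusion genes with a window. The data measure RNA and not binding, and a match in letters shows no site in use.

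Spaca6 (ENSMUSG00000080316, chr17:17827158-17843009, plus strand) encodes an immunoglobulin-domain protein of the sperm membrane that associates with IZUMO1. It stood at 16.8, 23.3 and 19.9 CPM in the WT libraries and at 17.9, 22.4 and 17.7 CPM in those labelled cKO. The groups overlapped widely, with replicate 2 high in each. The log2 fold change was -0.05 (SE 0.123, edgeR adjusted p 0.889), with 95% limits of -0.32 and 0.22, so a change of the size seen in Izumo1 is within the limits. Without WT replicate 2 the sign turned, to 0.07. Tmem81 (ENSMUSG00000048174, chr1:132506230-132508639, plus strand) encodes the third protein of that complex. Its values were 17.0, 22.1 and 19.0 CPM in the WT libraries and 15.0, 17.0 and 16.7 CPM in those labelled cKO. WT replicate 1 and cKO-labelled replicate 2 met at 17.0 CPM, and the others were apart. The log2 fold change was -0.25 (SE 0.101, edgeR adjusted p 0.315).

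Within a library, the ratio of 2 genes does not depend on scaling. Izumo1 had 5.04, 4.47 and 4.99 reads for each read of Tmem81 in the WT libraries and 5.18, 4.57 and 4.59 in those labelled cKO, ranges that overlap. The ratio of Izumo1 to Spaca6 was 5.08, 4.24 and 4.78 against 4.35, 3.48 and 4.34, overlapping as well. Spaca6 to Tmem81 gave 0.993, 1.05 and 1.04 in the WT libraries and 1.19, 1.31 and 1.06 in those labelled cKO, without overlap. The gap between 1.05 and 1.06 is within counting error, which is 2.83% to 3.15% for these genes by group. The ratio of Izumo1 to Dcst2 was 1.34 to 1.57 in the WT libraries and 1.09 to 1.20 in those labelled cKO, without overlap. The ratios carry no test, and the last was chosen after its values were seen.

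The Izumo paralogues encode relatives of IZUMO1 on the sperm head. Izumo2 (ENSMUSG00000066500, chr7:44708742-44719844, plus strand) lies 902 kb from Izumo1 on chromosome 7. It stood at 99.1, 112 and 111 CPM in the WT libraries and at 90.8, 85.0 and 94.8 CPM in those labelled cKO. No library of one group reached into the other, and the gap was narrowest between WT replicate 1 and cKO-labelled replicate 3. The log2 fold change was -0.25 (SE 0.074, edgeR adjusted p 0.288), or 83.9% of WT with a 95% interval from 75.0% to 93.8%. The ratio to Izumo1 overlapped between the groups, with 0.865 ± 0.0130 (SD, n = 3) reads of Izumo1 for each read of Izumo2 in the WT libraries and 0.861 ± 0.0527 (SD, n = 3) in those labelled cKO. The window before its start (chr7:44708480-44708729, plus strand) is shown as the counterpart of that of Izumo1, since the 2 genes gave like values, and it held none of the 3 motifs searched:
Izumo2 promoter: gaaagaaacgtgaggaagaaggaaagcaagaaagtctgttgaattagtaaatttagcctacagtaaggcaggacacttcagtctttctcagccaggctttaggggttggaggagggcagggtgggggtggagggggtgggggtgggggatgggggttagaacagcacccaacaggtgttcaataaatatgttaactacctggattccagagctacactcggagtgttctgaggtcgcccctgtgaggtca

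Izumo3 (ENSMUSG00000028533, chr4:92144329-92147234, minus strand) is needed to form the acrosome in mice. It had 85.0, 108 and 104 CPM in the WT libraries and 79.0, 86.8 and 88.9 CPM in those labelled cKO, and WT replicate 1 lay within the cKO-labelled range. That gave a log2 fold change of -0.22 (SE 0.091, edgeR adjusted p 0.324). Izumo4 (ENSMUSG00000055862, chr10:80702184-80705373, plus strand), the family member without a membrane anchor, had 117, 127 and 117 CPM in the WT libraries and 117, 98.0 and 109 CPM in those labelled cKO. Its groups are apart by less than the counting error, as the lowest WT and the highest cKO-labelled value both round to 117 CPM. The log2 fold change was -0.16 (SE 0.077, edgeR adjusted p 0.383), and its 95% limits of -0.32 and 0.01 reach across 0.

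Llcfc1 and Tmem95 encode small sperm proteins whose loss blocks fusion although IZUMO1 is present. Llcfc1 (ENSMUSG00000029867, chr6:41684431-41685717, plus strand), also called Sof1, was the most abundant of the 10. It had 229, 280 and 258 CPM in the WT libraries and 214, 198 and 236 CPM in those labelled cKO. WT replicate 1 lay below cKO-labelled replicate 3, so the groups overlapped. Llcfc1 had a log2 fold change of -0.24 (SE 0.088, edgeR adjusted p 0.306). Its window (chr6:41684181-41684430, plus strand) is shown as that of the most abundant gene. Among the fusion genes it was also the only window with TATAAA, the letters of a TATA box, on either strand. The match stands in capitals, starts 94 bases before the start site and does not show a TATA box in use:
Llcfc1 promoter: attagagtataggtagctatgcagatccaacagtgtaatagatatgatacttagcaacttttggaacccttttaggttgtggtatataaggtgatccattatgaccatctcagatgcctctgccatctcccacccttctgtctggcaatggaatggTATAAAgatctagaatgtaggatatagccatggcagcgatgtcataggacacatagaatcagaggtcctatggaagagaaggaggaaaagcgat
Of all RefSeq windows, 12.4% held TATAAA. The third motif, GTTGCC, a core of the X-box bound by RFX factors, was in 10.4% of windows and, of the fusion genes, in Spaca6 alone.

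Tmem95 (ENSMUSG00000094845, chr11:69876684-69878018, minus strand) encodes a membrane protein that binds the egg surface by a partner other than JUNO. It had 10.6, 12.0 and 10.7 CPM in the WT libraries and 11.9, 12.1 and 11.6 CPM in those labelled cKO. WT replicate 2 was as high as the cKO-labelled libraries and the other WT libraries were lower. The estimate was 0.09 on the log2 scale (SE 0.084, edgeR adjusted p 0.657), with 95% limits of -0.09 and 0.27. The lower limit lies above the -0.26 to -0.22 estimated for Izumo1, Izumo2, Izumo3, Llcfc1 and Tmem81. The intervals still overlap for Llcfc1, Izumo3 and Tmem81, which reach up to -0.05, -0.02 and -0.03, and the difference between the genes was not tested.

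Dcst1 and Dcst2 encode a pair of multipass membrane proteins that depend on each other for their stability in sperm and whose relatives act in fertilisation in flies and worms. The genes lie head to head on chromosome 3, Dcst1 (ENSMUSG00000042672, chr3:89350219-89365253) on the minus strand and Dcst2 (ENSMUSG00000109293, chr3:89361975-89377549) on the plus strand in GENCODE. RefSeq starts Dcst2 later, so that 65 bases separate the 2 start sites. Those bases (chr3:89365254-89365318, plus strand), shown because the pair stood apart from most of the other genes in direction, held none of the motifs:
Dcst1 and Dcst2 between the starts: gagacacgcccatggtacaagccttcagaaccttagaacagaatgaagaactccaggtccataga

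Dcst1 had 78.5, 76.5 and 74.5 CPM in the WT libraries and 82.3, 80.8 and 76.7 CPM in those labelled cKO. Dcst2 had 63.8, 63.1 and 62.8 CPM and 71.4, 69.6 and 63.9 CPM. In each gene cKO-labelled replicates 1 and 2 were the highest and replicate 3 was within or just above the WT range. The groups of Dcst1 overlapped, and those of Dcst2 were apart by the gap between 63.8 and 63.9 CPM, which is within counting error. The log2 fold changes were 0.06 (SE 0.064, edgeR adjusted p 0.702) and 0.11 (SE 0.067, edgeR adjusted p 0.479). Reads of Dcst1 for each read of Dcst2 were 1.21 ± 0.0229 (SD, n = 3) in the WT libraries and 1.17 ± 0.0247 (SD, n = 3) in those labelled cKO, with overlap. The low 95% limits, -0.08 and -0.04, lie above the estimates of the 5 genes with an unadjusted p under 0.05. The intervals still overlap for some of them, as those of Izumo3 and Tmem81 reach up to -0.02 and -0.03. The difference between the genes was not tested. The spans overlap on opposite strands, but the reads were counted by strand, and at most 0.564% of the reads of any fusion gene in any library lay on the other strand.

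In 4 of the 10 genes the groups did not overlap, with the cKO-labelled one lower for Izumo1, Izumo2 and Izumo4 and higher for Dcst2. Over all tested genes 18.9% were apart in either direction. The groups of the other 6 overlapped.

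**Figure D2:**
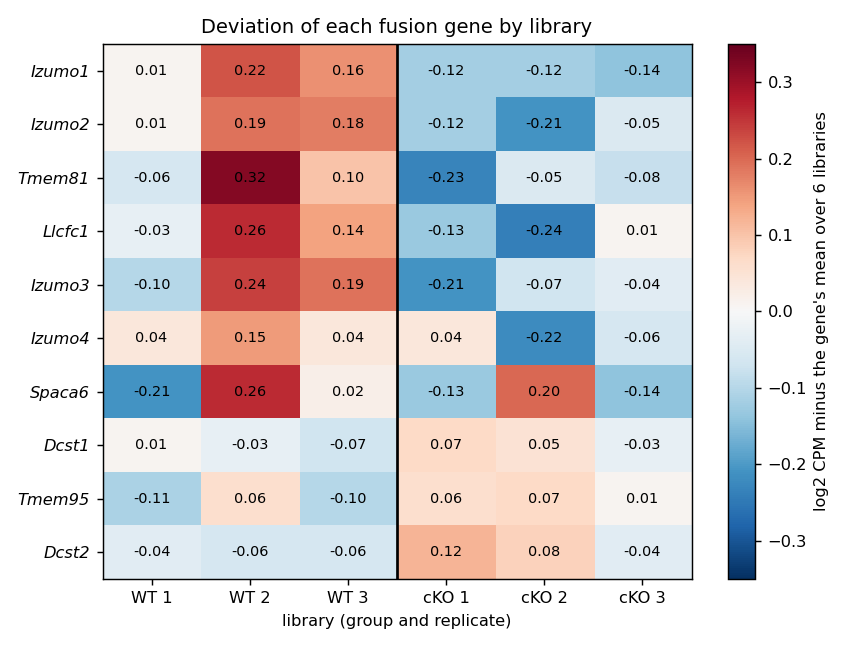
Deviation of each fusion gene (rows) in each library (columns) from its own mean over the 6 libraries, in log2 CPM; red is above and blue below that mean. WT replicate 2 was highest for 7 of the 10 genes, and WT replicate 1 lay near 0 or below it in all 10.

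The libraries were not uniform within a group. WT replicate 2 held the highest value of 7 of the 10 genes, with a mean deviation of 0.16 on the log2 scale, and was above the other WT libraries in 8. WT replicate 1 was the lowest WT library for 7 genes, with a mean deviation of -0.05, which lies within the -0.07 to -0.05 of the 3 cKO-labelled libraries. In the map of deviations, Izumo1, Izumo2, Izumo3, Llcfc1 and Tmem81 share this pattern, with WT replicates 2 and 3 high, whereas Dcst1 and Dcst2 do not.

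**Figure D3:**
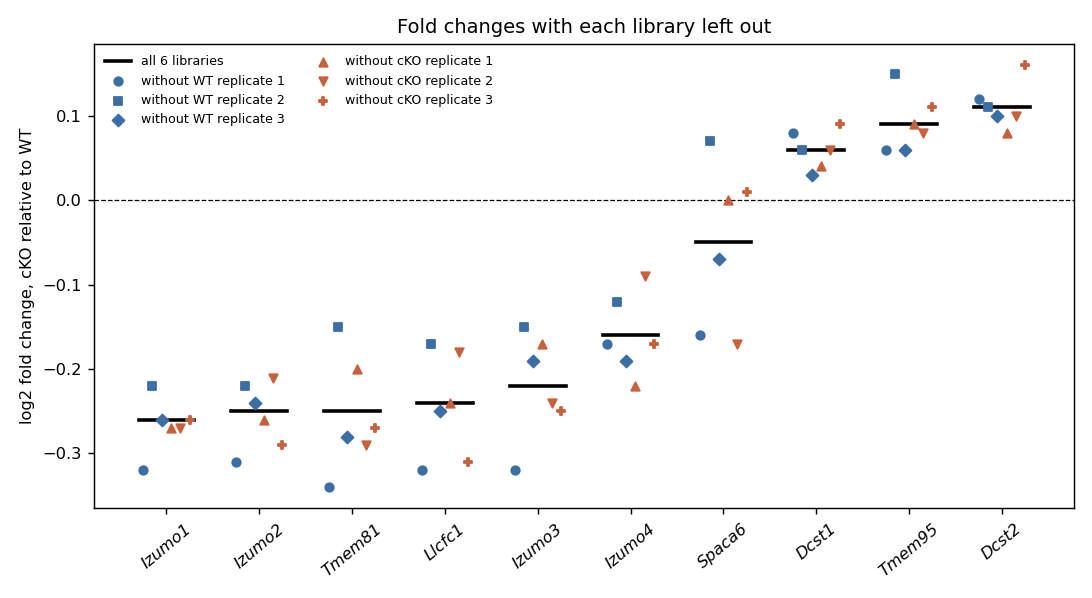
Log2 fold change of each fusion gene (cKO-labelled relative to WT) with all 6 libraries (black line) and with each library left out in turn (symbols). Leaving out WT replicate 2 moved Tmem81 to -0.15, and Spaca6 is the only gene with points on both sides of 0.

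Leaving out WT replicate 2 brought the values nearest to 0 for Izumo1 (-0.22), Izumo3 (-0.15), Llcfc1 (-0.17) and Tmem81 (-0.15). For Izumo2 and Izumo4 the value nearest to 0, -0.21 and -0.09, came without cKO-labelled replicate 2. Leaving out WT replicate 1 moved the 5 lower genes away from 0, to between -0.34 and -0.31. No fusion gene passed an adjusted p of 0.05 in any of the 6 fits with a library left out.

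Levels of different genes were compared per kilobase of exon. Llcfc1 was first at 318 CPM per kilobase on average over the 6 libraries, followed by Izumo2 at 137, Izumo3 at 72.7 and Izumo4 at 40.8. Dcst2 (28.8) and Izumo1 (28.5) came next with overlapping ranges. On this length alone their order followed the labels: Izumo1 was the higher in all 3 WT libraries and Dcst2 in all 3 labelled cKO. The length of Izumo1 here includes the 21.9% of its exon bases shared with Rasip1. Reads there are not assigned, which lowers its value per kilobase, so its place beside Dcst2 rests on the length used. Tmem95 at 21.7, Dcst1 at 14.9, Tmem81 at 8.83 and Spaca6 at 2.78 CPM per kilobase closed the order. Apart from Dcst2 and Izumo1, neighbours in this order had ranges over the 6 libraries that did not overlap. The length matters, since the annotated exons of Spaca6 join to 7.07 kb and those of Dcst1 to 5.24 kb, more than any one of their transcripts. Over the longest transcript, of 2.34 kb, Dcst1 stood at 33.4 CPM per kilobase on average and Izumo1 at 36.6, with overlapping ranges of 31.8 to 35.1 and 33.0 to 42.4. Izumo1 was then above Dcst1 in all 3 WT libraries, and Dcst1 above Izumo1 in 2 of the 3 labelled cKO. Dcst2, at 27.5 to 31.2 over its longest transcript, then lay below Izumo1 in all 6 libraries, so their order no longer followed the labels. Spaca6 remained last at 4.83 and Tmem81 next to last at 10.2. Izumo1 was above its partner genes Tmem81 and Spaca6 in all 6 libraries on either length.

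**Figure D4:**
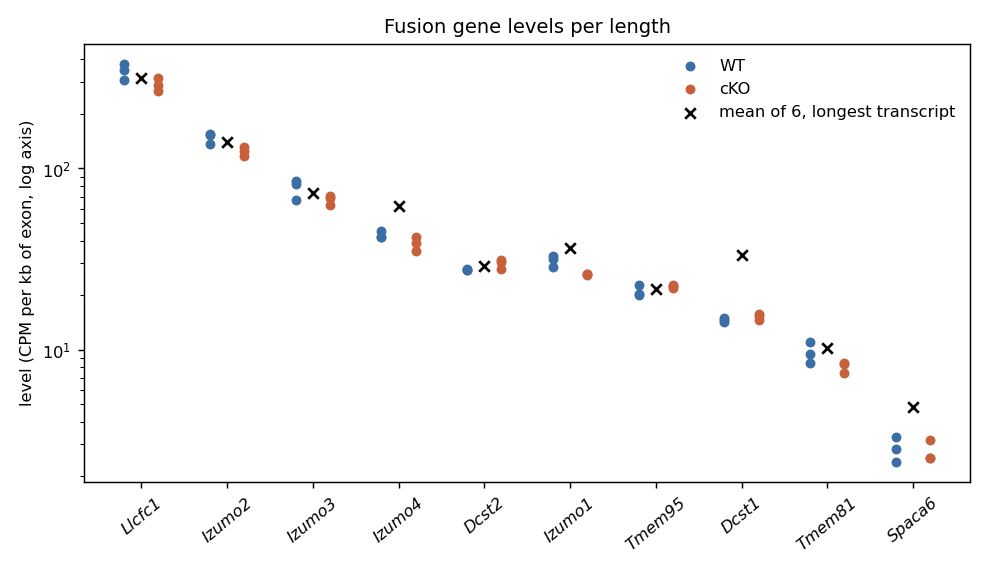
Level of each fusion gene per kilobase of exon (CPM per kilobase, log axis) in each WT (blue) and cKO-labelled (orange) library, ordered by mean. Crosses give the mean over 6 libraries with the length of the longest transcript, which moves Dcst1 from 14.9 to 33.4.

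Other genes of sperm-egg adhesion and fusion were taken as a list of 22, chosen by function with earlier results of these data known. None passed the edgeR threshold in either direction (smallest adjusted p 0.305). Their median log2 fold change was -0.14, with 18 of 22 negative (49.3% of all tested genes were), and 8 were lower and 1 higher at an unadjusted p under 0.05, beside 6.54% and 7.33% of all tested genes. Like those of the fusion genes, these values come from the same 6 libraries and are not independent of each other. The 4 with the smallest unadjusted p were Frey1, Adam1b, Cd46 and Spata46. Frey1, a membrane protein that stabilises IZUMO1 in spermatids, had 25.5, 29.8 and 27.2 CPM in the WT libraries and 25.8, 20.2 and 22.2 CPM in those labelled cKO, with -0.27 on the log2 scale (SE 0.097, edgeR adjusted p 0.305). Only cKO-labelled replicate 1 reached the WT range, and without it Frey1 passed the threshold, where 0.355% of tested genes were called lower. No other gene of the list passed under any of the alternatives run. Cd46, which in mice is an acrosomal membrane protein, had -0.26 (edgeR adjusted p 0.310), and Spata46, a spermatid nuclear envelope gene whose loss impairs fusion, had -0.16 (edgeR adjusted p 0.315). Adam1b, a sperm surface partner of Adam2, had the opposite sign, with 122 to 132 CPM in the WT libraries and 135 to 160 CPM in those labelled cKO, a difference of 0.21 on the log2 scale (SE 0.076, edgeR adjusted p 0.306).

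The most abundant genes of that list were Crisp2, a secreted sperm protein, and Adam3, which sperm need to bind the egg coat. Crisp2 had 2340 ± 320 CPM (SD, n = 3) in the WT libraries and 2030 ± 144 CPM (SD, n = 3) in those labelled cKO, with overlap. Adam3 had 1290 ± 54.1 CPM (SD, n = 3) and 1280 ± 40.4 CPM (SD, n = 3), a log2 difference of -0.02 (edgeR adjusted p 0.938).

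**Figure D5:**
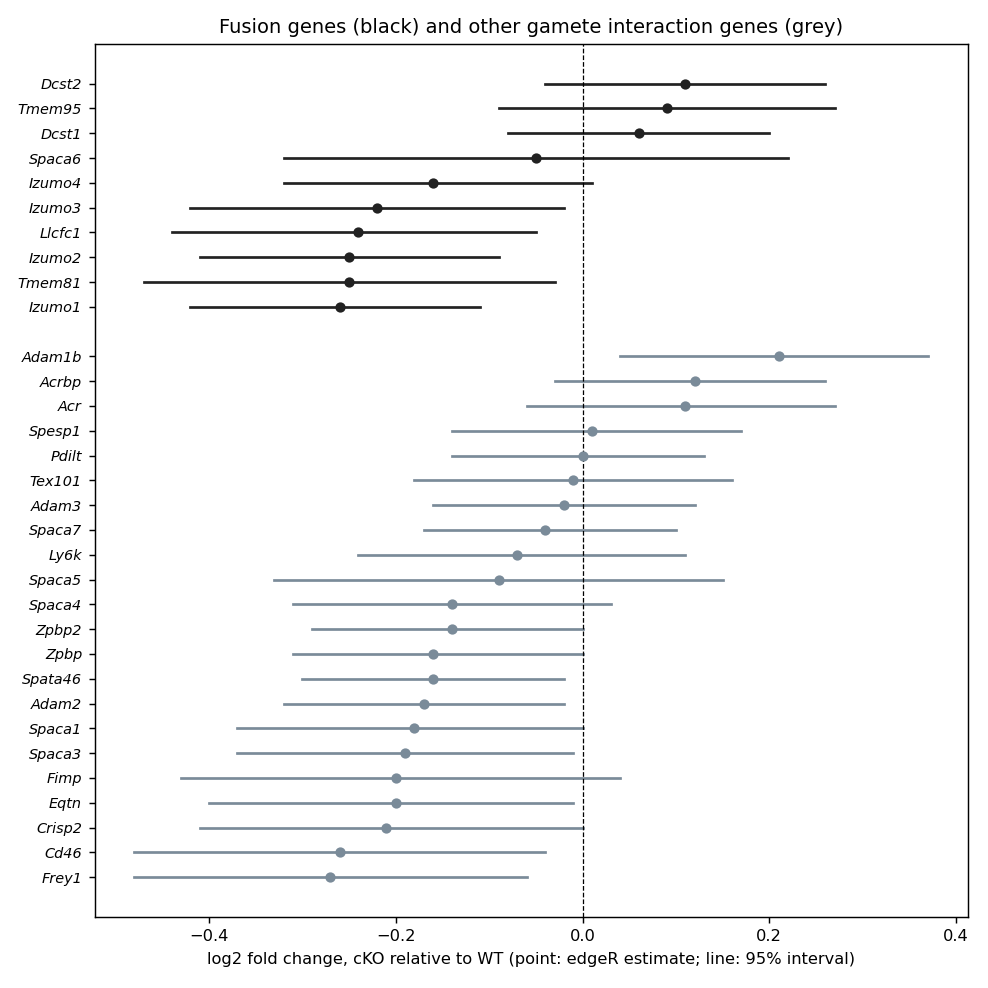
Log2 fold change of cKO-labelled relative to WT libraries, with 95% intervals unadjusted for the number of genes, for the 10 fusion genes (black) and 22 other gamete interaction genes (grey). The lowest fusion gene is Izumo1 at -0.26 and the highest Dcst2 at 0.11.

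On the egg side, Izumo1r had 1 read in WT replicate 1 and 0 in the other 5 libraries. The tetraspanins Cd9 and Cd81, which act on the egg membrane and are made by many cell types, had 3.77 to 5.84 CPM and 60.4 to 74.1 CPM, with overlapping groups.

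Markers of spermatids, spermatocytes and Sertoli cells were set beside these values, in lists chosen with earlier results of these data known. Of 9 round spermatid markers 8 had a negative log2 fold change, with a median of -0.11, where 49.3% of all tested genes were negative. Their summed level was 1400 to 1450 CPM in the WT libraries and 1180 to 1380 CPM in those labelled cKO, without overlap. Without Tssk6, left out after its values were seen, the other 8 summed to 839 to 877 and 804 to 844 CPM, with overlap. Of 11 elongating spermatid markers 6 were negative, with a median of -0.03 and summed levels of 21700 to 24000 and 19300 to 22900 CPM. The 8 pachytene spermatocyte markers had a median of 0.05 and the 7 Sertoli cell markers one of 0.11. Of these 4 lists no gene passed the edgeR threshold, while DESeq2 called 1 pachytene, 1 round spermatid, 2 elongating spermatid and 0 Sertoli cell markers. It called 1.78% of all the genes it tested. At an unadjusted p under 0.05 in edgeR, 1, 3 and 2 of the germ cell markers in that order were lower, and 2 Sertoli cell markers were higher. Among all tested genes 6.54% were lower and 7.33% higher at that p. The part of these differences in those of the fusion genes was not tested. Reads outside genes made up 6.65% of all reads in WT replicate 2 and 6.94% in cKO-labelled replicate 2, against 4.98% to 6.08% in the others, and their part was not tested either.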

How the data were processed

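Total RNA of whole testes was sequenced as single-end reads of 75 bp, per the labels' protocols. The deposited values are raw counts of reads per gene in the layout of STAR's gene count output, with no normalisation. The submitters' processing notes name STAR, HTSeq, DESeq2 and the build mm10 (GRCm38), without versions; the annotation release is not given in the sources used here. Opposite-strand counts, 96.0% to 96.2% of the strand-assigned reads, were used. The 4 opening lines that name no gene held 14.8% to 16.7% of reads and were left out. Symbols, lengths and positions came from GENCODE M21 (52093 of 53700 identifiers matched) and start sites and sequences from RefSeq (GRCm38.p6), which held windows for 9 of the 10 genes.

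All genes were fitted in edgeR 4.0.16 (R 4.3.3) with TMM scaling (trimmed mean of M values), a low-count filter by filterByExpr (minimum 10), and quasi-likelihood F tests of the group term alone. P-values were adjusted by Benjamini-Hochberg over 21902 genes at a threshold of 0.05. Limits use the F statistic's standard error. The alternatives were RLE scaling, library totals, other filters, unstranded counts, a replicate block, DESeq2 1.42.0, robust fitting and leaving out each library; DESeq2 on all identifiers was added after the data had been seen. The fit was tested on simulated data. Replicates are labelled as biological replicates. Pairs within a group differed by more than sampling noise (chi-square per gene of 8.69 to 39.9). Same-numbered libraries deviated with correlations of 0.35, 0.26 and -0.05 across genes, and pairs with different numbers with -0.34 to 0.11. The labels do not say that numbers pair mice, so the main fit did not pair them, and the block is given as an alternative.

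The genes and lists were chosen with earlier results of these data known. Named were the 10 fusion genes, the 3 egg-side partners, annotated genes that overlap a fusion gene and tissue-defining markers at or near 0. Of the wider list, any gene past the threshold was named, or else the 4 with the smallest p and the 2 most abundant. For cell type markers counts, medians and some summed levels are given. Tssk6, Rnase10 and Gdf9 were named outside this rule, after their values were seen. Of the remaining lists, spermatogonia, Leydig, peritubular myoid and macrophage markers had median log2 fold changes of 0.10, -0.14, -0.02 and -0.10. There edgeR called 0 genes and DESeq2 called 1, a Leydig marker, beside 0.0183% and 1.78% of the genes each tested. At an unadjusted p under 0.05 edgeR gave 2 Leydig markers lower, 1 myoid marker higher and 1 macrophage marker each way. The shares of all tested genes at that p were 6.54% lower and 7.33% higher.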

Additional observations from a re-analysis of the deposited data

How the results depend on the processing

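No fusion gene changed sign under the 15 alternatives except Spaca6, which ran from -0.17 to 0.07 when single libraries were left out: 0.07 without WT replicate 2, 0.00 without cKO replicate 1 and 0.01 without cKO replicate 3; the cause was not tested. The median over the 10 genes stayed between -0.24 and -0.13. Izumo1 was called with DESeq2 (1 of the 10 genes, adjusted p 0.0494) and without a filter on low counts (1 of 10, adjusted p 0.0406, where 1.10% of genes were called lower), and in no other setting. With DESeq2 on all identifiers, added after the data had been seen, its adjusted p was 0.0532 and 0 of the 10 were called. Over its 15 alternatives the adjusted p of Izumo1 ran from 0.0406 to 0.730. Of the 22 other gamete interaction genes, fits with 1 library left out called 0 to 1, the 1 being Frey1 without cKO replicate 1, where 0.355% of genes were called lower.

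The count over all genes, 4, was 757 without a filter, 209 with DESeq2, 193 with DESeq2 on all identifiers, 49 with the replicate block and 2 with unstranded counts. It ran from 1 (without WT replicate 3 or cKO replicate 2) to 628 (without cKO replicate 1), with 116 without WT replicate 1, 2 without WT replicate 2 and 7 without cKO replicate 3. The block changed no call of a fusion gene, though the edgeR adjusted p of Izumo1 fell from 0.276 to 0.0853. Unstranded counts lowered Dcst1 to 68.0 CPM, since 24.2% of its exon bases lie opposite the pseudogene Gm10702 and become ambiguous. The design limits small changes: with 3 mice a group, the 95% limits of the 10 genes span at least 0.28 on the log2 scale.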
